A study of Mus musculus with 24 samples.

Results

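The proteasome genes described here were all rows of the 5 deposited tables with a symbol beginning Psma, Psmb, Psmc, Psmd, Psme, Psmf or Psmg and a digit, together with Nfe2l1. The rule took 49 genes, 48 of them by symbol, out of 13162 genes listed in any table, and each of the 49 stood in all 5 tables. By role they were 7 alpha and 7 constitutive beta subunits of the core particle, 5 immunoproteasome genes, 6 ATPases and 11 other subunits of the regulatory cap, 3 chaperones of cap assembly and 4 of core assembly, 3 other activator or inhibitor genes, and Nfe2l1. Another 2 genes carried the symbol alone: Psmc3ip is a meiotic recombination gene and not a proteasome subunit, and Psme2b is a near copy of Psme2. Psma8 and Psmb11, restricted to testis and to thymus, were not listed in the tables used.

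The libraries were made from interscapular BAT (brown adipose tissue, a fat depot that makes heat) of male mice on a C57BL/6 background, 10 to 12 weeks old and killed at ZT10. Control mice were HDAC3 floxed, and KO mice were Ucp1-cre HDAC3 floxed, so that both genotypes carried the floxed allele and the Cre of the KO was driven by the brown adipocyte promoter of Ucp1. Each genotype was sampled in 3 states: kept at 22 °C, or exposed to 15 °C during 24 h and then housed at 22 °C again during 24 h or 7 d, with 4 libraries in each of the 6 groups. The design asks whether cold exposure leaves a lasting effect in control and HDAC3-deficient mice. The deposited tables compare 24 h of recovery with 22 °C within each genotype, and KO with Control in each of the 3 states, and they hold 1 mean per group and no value per library.

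The proteasome is the protease that degrades proteins tagged with ubiquitin. Its barrel-shaped core is built of alpha and beta rings, the beta subunits Psmb5, Psmb6 and Psmb7 carry the catalytic sites, and a cap of ATPases and other subunits binds, unfolds and admits the substrate. In cells exposed to interferon gamma, Psmb8, Psmb9 and Psmb10 take the places of Psmb5, Psmb6 and Psmb7, and the activator of Psme1 and Psme2 can replace the cap; this form, the immunoproteasome, produces peptides for antigen presentation. Nfe2l1 is a transcription factor held in the membrane of the endoplasmic reticulum that, once processed, activates proteasome subunit genes when proteasome activity falls short, and brown fat is known to need it for protein turnover in the cold.

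Promoter sequence is shown for members chosen among those with a motif match: Psmb5 and Psmd12, which rose after cold in both genotypes, and Psmb6, which did not pass in either. The sequences are from RefSeq, build GRCm38.p6, which gave 49 promoter windows of equal length around a transcription start for 42 of the 49 genes. Only bases before the start are printed, 5′ to 3′ on the strand of the gene, and the capitals mark a match to TGACNNNGC, the core of the antioxidant response element bound by Nfe2l1 and Nfe2l2. In Psmd12 the match lies on the opposite strand, so the line shows its reverse complement.
Psmb5, minus strand, chr14:54618004-54618072: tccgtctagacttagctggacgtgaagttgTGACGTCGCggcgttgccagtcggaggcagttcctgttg
Psmb6, plus strand, chr11:70525318-70525356: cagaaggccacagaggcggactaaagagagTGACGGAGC
Psmd12, plus strand, chr11:107479278-107479319: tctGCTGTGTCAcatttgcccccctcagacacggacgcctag

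The match began 47 bases before the start in Psmb5, 9 in Psmb6 and 247 in Psmd12. Searched on both strands, TGACNNNGC was found in 6 of the 49 member promoters (12.24%), those of Psmb5, Psmb6, Psmc6, Psmd12, Psmd9 and Psme4, and in 12.39% of all 32851 promoters in the RefSeq table. AAGGTCA, the letters of the estrogen-related receptor element, was found in 4 (8.163%), those of Psma3, Psmb10, Psmc3ip and Psmd2, against 4.718%. Of these, Psmc3ip is not a proteasome gene. Among the 11999 promoters of genes listed in these data, the shares were 14.45% for TGACNNNGC and 3.325% for AAGGTCA. Of the 9 members called higher after cold in both genotypes, Psmb5 and Psmd12 alone were found with TGACNNNGC. Windows covered 42 of the 49 genes. TGACNNNGC and TGACCTT, the reverse complement of AAGGTCA, share their first letters, and no member promoter held both. These are matches of letters in a window of fixed size and say nothing of binding.

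Library totals, worked out from the step size of low deposited means, ran from 4.64e+06 to 1.25e+07 reads (mean 8.39e+06 ± 1.9e+06, SD, n = 24). At that depth the median member had 367 reads per library in its lowest group and 762 in its highest, whereas Psmc3ip had 5.21 to 18.6. Hdac3 was lower in the KO groups in each of the 3 states, with deposited means of 26.1 and 8.57 RPKM at 22 °C, 27.1 and 6.43 at 24 h, and 25.4 and 7.43 at 7 d in Control and KO. All 5 brown adipocyte markers (Ucp1, Cidea, Adipoq, Plin1, Ppargc1a) were listed in every group, the lowest deposited mean being 2.64 RPKM for Ppargc1a in KO at 22 °C. Ucp1, the heat-producing uncoupling protein and the gene whose promoter drives the Cre, had a 22 °C deposited mean of 1607 RPKM in Control against 32.8 RPKM in KO. The 5 markers did not go 1 way there: the deposited table called Ucp1, Cidea and Ppargc1a lower in KO, at -5.39, -1.42 and -1.44 log2, and Adipoq and Plin1 higher, at 0.76 and 0.82 log2. In bulk tissue, fewer cells of a type and less RNA per cell cannot be told apart.

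RPKM, the read count scaled to gene length and library total, is a level that can be set beside another gene's. The deposited log2 fold changes carry the authors' normalization factors and the deposited means do not, and log2 ratios of the 2 means stand off from the deposited log2 values by a similar gap for most genes of a table. The median gap was -0.24 log2 for KO against Control at 22 °C, -0.14 at 24 h and -0.066 at 7 d, and -0.064 and 0.034 for recovery in Control and KO. Directions are those of the deposited fold change, and in the paragraphs that follow a pair of values in parentheses is the deposited log2 fold change and its adjusted p. Genes are called higher or lower where the deposited adjusted p of edgeR was under 0.05, a test that measures the spread between libraries.

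Many proteasome genes were higher in KO than in Control brown fat in each of the 3 states, and few or none were lower. At 22 °C the deposited table called 21 of the 49 members higher in KO and 2 lower, where 16.3% of all genes tested were higher and 18% lower. At 24 h of recovery it was 32 higher and 0 lower, against 10.5% and 7.96% of all genes. At 7 d it was 28 higher and 0 lower, against 9.18% and 6.14%. The median deposited log2 fold change of the members was 0.19, 0.41 and 0.40 in the 3 states, and that of all other genes was -0.01, -0.05 and -0.01. At 22 °C this direction depends on scale: as a ratio of deposited means with no centring, the median member was at -0.05 log2 and 22 of the 49 were above 0, while the median of all genes was at -0.25. At 24 h and 7 d the median member stayed above 0 on that scale too, at 0.27 and 0.34, and no called member changed sign in any of the 5 comparisons.

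**Figure D1:**
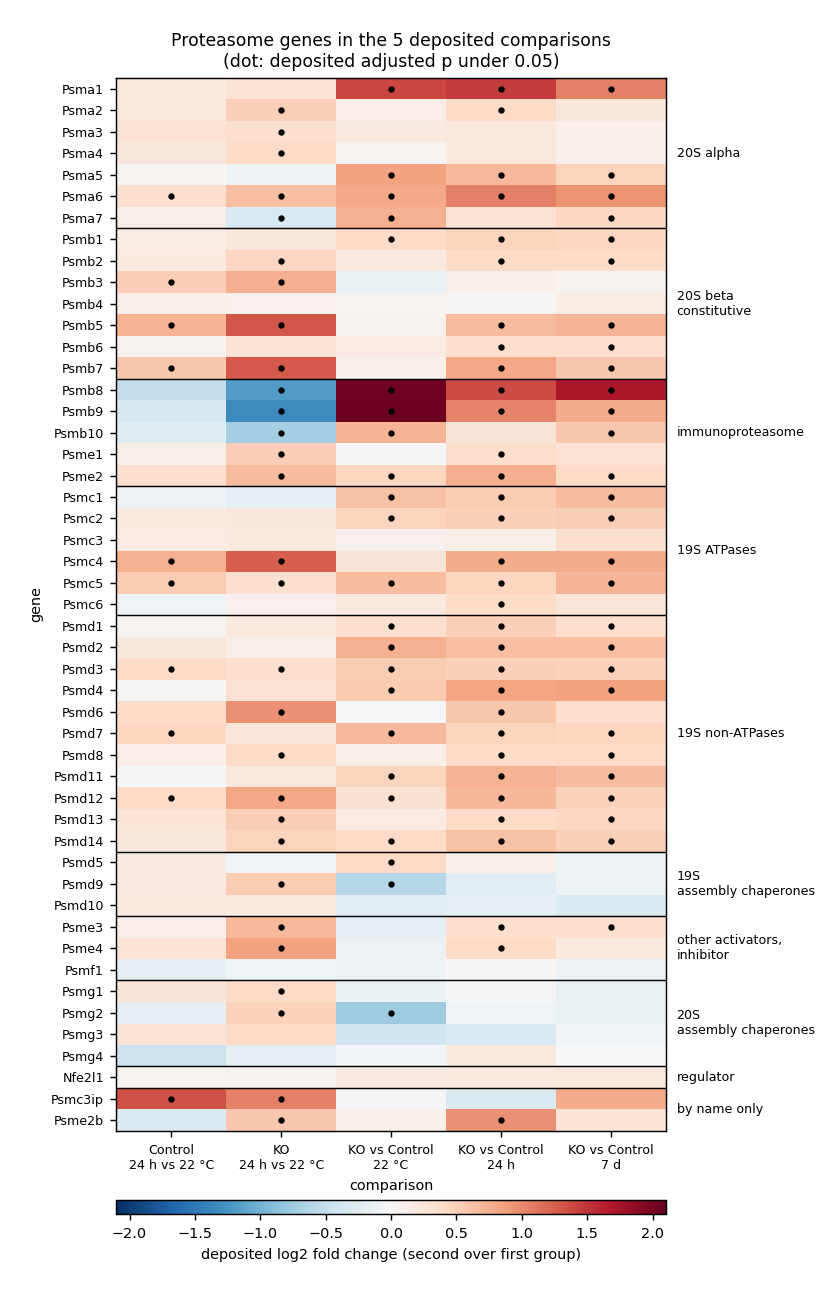
Deposited log2 fold change of each of the 49 genes (rows, by role) in the 5 deposited comparisons (columns); red is higher in the second-named group, blue lower, and a dot marks a deposited adjusted p under 0.05. The 3 genotype columns hold 21, 32 and 28 red dots. In those at 24 h and 7 d the 7 assembly chaperones hold none, where 10.5% and 9.18% of all genes were called higher.

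The 3 genotype comparisons share no libraries with one another. In all of them 18 of the 49 members were called higher in KO, where 4.43% of the 12072 genes tested in all 3 were: Psma1, Psma5, Psma6, Psmb1, Psmb8, Psmb9, Psme2, Psmc1, Psmc2, Psmc5, Psmd1, Psmd2, Psmd3, Psmd4, Psmd7, Psmd11, Psmd12 and Psmd14. Another 8 were called higher at 24 h and 7 d and not at 22 °C, against 1.71% of those genes: the catalytic subunits Psmb5, Psmb6 and Psmb7, with Psmb2, Psmc4, Psmd8, Psmd13 and Psme3. Whether the KO effect on these 8 differed between 22 °C and 24 h was tested through the recovery responses of the genotypes, and Psmb5, Psmb7 and Psme3 passed. The 7 members called in no comparison were Psmb4, Psmc3, Psmd10, Psmf1, Psmg3, Psmg4 and Nfe2l1. Of the 31 constitutive subunits of core and cap taken by symbol, 16, 25 and 23 were called higher at 22 °C, 24 h and 7 d, and none lower.

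Among the alpha subunits, which form the outer rings and the gate of the core, Psma1 stood farthest from Control. Its deposited mean was 75.5, 84.3 and 91.4 RPKM in Control at 22 °C, 24 h and 7 d, and 169.7, 211 and 181 RPKM in KO. Every KO mean of Psma1 was thus above every Control mean, and the deposited log2 fold change was 1.40 at 22 °C (adjusted p 2.6e-23), 1.47 at 24 h (9.0e-25) and 1.06 at 7 d (6.6e-13). Psma6 had deposited means of 89.9, 109.9 and 100.2 RPKM in Control and 131, 209.6 and 183 RPKM in KO. Its deposited log2 fold changes were 0.79, 1.07 and 0.94 (adjusted p 8.6e-10, 1.1e-16 and 1.2e-12). Psma5 was higher in KO by a deposited 0.84, 0.68 and 0.47 log2, from Control means of 24.0, 23.9 and 26.8 RPKM. The ring was not uniform. Psma7 passed at 22 °C (0.74 log2, adjusted p 5.6e-08) and at 7 d (0.43, 0.0071) and not at 24 h (0.30, 0.078) in the deposited tables, Psma2 passed at 24 h alone (0.41, 0.011), and Psma3 and Psma4 passed in no genotype comparison, their deposited log2 values lying between 0.06 and 0.23.

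The constitutive beta subunits form the inner rings of the core. At 22 °C the deposited table called 1 of 7 higher in KO, Psmb1, a structural beta subunit, at 0.40 log2 (adjusted p 0.0044), and their median was 0.10 log2. After cold 5 of 7 were higher, at 24 h and at 7 d alike, with deposited medians of 0.40 and 0.38 log2. Psmb5, which carries the chymotrypsin-like site, had deposited means of 45.3 RPKM (Control) and 40.6 RPKM (KO) at 22 °C, 72.2 and 103 at 24 h, and 58.4 and 91.6 at 7 d. As deposited means, which carry no normalization factor, KO was the lower before cold and the higher after it. The deposited log2 fold change was 0.08 (adjusted p 0.78), then 0.66 (0.00017) and 0.71 (5.6e-05). Psmb7, which carries the trypsin-like site, had deposited means of 109.7 and 99.9 RPKM at 22 °C, 156 and 249 at 24 h, and 135 and 191 at 7 d. Its deposited log2 fold changes were 0.10 (adjusted p 0.61), 0.81 (2.7e-09) and 0.56 (0.00014). Of their annotated exon bases Psmb5 shares 12.1% with Mir686 and Psmb7 11.8% with Nek6. Psmb2, a structural subunit, was at a deposited 0.18 log2 at 22 °C (adjusted p 0.27) and was higher in KO at 24 h (0.40, 0.0083) and 7 d (0.38, 0.014). Psmb6, which carries the caspase-like site, had deposited values of 0.16, 0.37 and 0.37 log2 (adjusted p 0.34, 0.021 and 0.024), and its 6 deposited means spanned 82.6 to 111 RPKM. Psmb3 and Psmb4, both structural, passed in no genotype comparison, with deposited log2 values between -0.14 and 0.16.

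**Figure D2:**
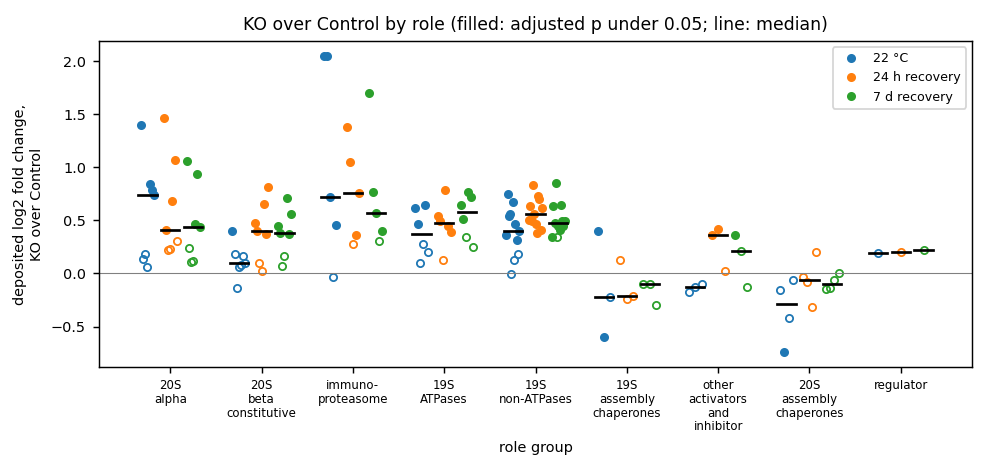
Deposited log2 fold change of KO over Control (vertical axis) by role group (horizontal axis) at 22 °C, 24 h and 7 d of recovery; each point is 1 gene, filled where the deposited adjusted p was under 0.05, and the black line is the group's median. The medians of the constitutive beta subunits are 0.10, 0.40 and 0.38, and those of the core assembly chaperones are -0.29, -0.06 and -0.10.

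In the cap, the ATPases form the ring that unfolds the substrate. The deposited tables called 3 of 6 higher in KO before cold, 5 at 24 h and 4 at 7 d. Psmc1 was higher by a deposited 0.61, 0.54 and 0.64 log2, Psmc2 by 0.47, 0.49 and 0.52, and Psmc5 by 0.64, 0.45 and 0.72. Psmc4 was called after cold and not before it. Its deposited means were 36.9 and 37.9 RPKM in Control and KO at 22 °C, 59.5 and 93.0 at 24 h, and 50.1 and 81.8 at 7 d. Its deposited log2 fold change was 0.27 (adjusted p 0.15) before cold, 0.79 (1.0e-06) at 24 h and 0.77 (3.2e-06) at 7 d. Psmc6 passed at 24 h alone (0.39 log2, adjusted p 0.015, deposited), and Psmc3 in none, at a deposited 0.09, 0.12 and 0.34 log2.

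The other cap subunits include ubiquitin receptors and a deubiquitinase. By the deposited adjusted p, 8 of 11 were higher in KO at 22 °C, 11 of 11 at 24 h and 10 of 11 at 7 d, with medians of 0.40, 0.56 and 0.48 log2. Psmd4, a ubiquitin receptor, had deposited means of 76.7, 74.7 and 71.2 RPKM in Control and 95.5, 119.9 and 123 RPKM in KO, so that every KO mean was above every Control mean. Its deposited log2 fold change was 0.55 at 22 °C (adjusted p 0.00041), 0.83 at 24 h (1.2e-07) and 0.85 at 7 d (8.1e-08). Psmd2, a scaffold of the cap base, was higher by a deposited 0.75, 0.64 and 0.64 log2. Psmd11, a lid subunit, was higher by a deposited 0.46, 0.72 and 0.64 log2, and Psmd12, also of the lid, by 0.32, 0.70 and 0.49. Psmd14, the deubiquitinase that removes ubiquitin chains, was higher by a deposited 0.40, 0.62 and 0.50 log2 (adjusted p 0.012, 6.6e-05 and 0.0029). Psmd7 and Psmd3, both of the lid, passed in all 3 states with deposited values between 0.45 and 0.67 log2. Psmd1, the other scaffold of the base, passed in all 3 at a deposited 0.36, 0.51 and 0.35 log2. The lid subunits Psmd8 and Psmd13 passed after cold, Psmd8 at a deposited 0.38 and 0.41 log2 and Psmd13 at 0.41 and 0.44, and not before it (0.13, 0.48 and 0.18, 0.30). Psmd6, the member that missed at 7 d (0.35 log2, adjusted p 0.11), was at -0.01 before cold in the deposited table.

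Assembly chaperones build the particle and are not part of the finished one. None of the 7 was called higher in KO at 24 h or 7 d in the deposited tables, where 10.5% and 9.18% of all genes were. For 7 genes, 0 is near those shares. Some had few reads, Psmg3 30.4 to 52.8 per library and Psmg4 35.3 to 51.8. At 22 °C, Psmg2, a chaperone of the alpha ring, was lower in KO, with deposited means of 10.1 and 5.10 RPKM and a log2 fold change of -0.74 (adjusted p 0.00090). Psmd9, a chaperone of the cap base, was lower too, with deposited means of 4.80 and 2.71 RPKM and a log2 fold change of -0.60 (adjusted p 0.0062). Psmd9 shares 25.5% of its 7248 exon bases annotated in GENCODE M21 with a noncoding RNA, and the kit does not mark strand. Its deposited length was 2591, so whether the shared bases were among those counted is not known. Psmd5, another base chaperone, was higher, by a deposited 0.40 log2 (adjusted p 0.035). Psmg1, Psmg3, Psmg4 and Psmd10 passed in no genotype comparison, with deposited log2 values between -0.42 and 0.20. By level the chaperones lay under the subunits: the median deposited mean at 22 °C in Control was 11.3 RPKM for those of the core and 6.92 RPKM for those of the cap, against 65.4 RPKM for the alpha and 81.1 RPKM for the constitutive beta subunits.

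Psmb8 and Psmb9 were the members farthest from Control before cold. Psmb8 had deposited means of 20.4, 13.9 and 13.2 RPKM in Control at 22 °C, 24 h and 7 d, and 72.0, 32.8 and 40.7 RPKM in KO. All 3 KO means were above all 3 Control means, and its deposited log2 fold change was 2.05 at 22 °C (adjusted p 6.3e-17, or 4.13-fold), 1.37 at 24 h (1.7e-07) and 1.70 at 7 d (9.7e-11). Psmb9 had deposited means of 12.5, 9.56 and 10.9 RPKM in Control and 44.5, 18.1 and 17.6 RPKM in KO. Its deposited log2 fold change was 2.05 (7.6e-14), 1.05 (0.0010) and 0.77 (0.028). Psmb10 was closer to Control, with deposited means of 17.8, 14.3 and 12.6 RPKM in Control and 24.96, 15.7 and 17.9 RPKM in KO. It passed at 22 °C (deposited log2 0.72, adjusted p 0.00018) and at 7 d (0.57, 0.013) and not at 24 h (0.27, 0.32). Psmb8 shares 14.7% of its annotated exon bases with an antisense gene, and Psmb9 shares 5.8% with Tap1.

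The activators bind the ends of the core. Psme2 passed in all 3 states, with deposited log2 fold changes of 0.46, 0.76 and 0.40 (adjusted p 0.0073, 4.3e-06 and 0.040). Its partner Psme1 passed at 24 h alone, with deposited values of -0.03, 0.36 and 0.31 log2 (adjusted p 0.92, 0.026 and 0.094). Psme3, which forms a nuclear activator, was at a deposited -0.18 log2 at 22 °C (adjusted p 0.33) and higher in KO at 24 h (0.36, 0.036) and 7 d (0.36, 0.047). Psme4, the activator known as PA200, passed at 24 h alone (deposited log2 0.42, adjusted p 0.0056), with -0.13 at 22 °C and 0.21 at 7 d. The inhibitor Psmf1 passed in no comparison, and its deposited means lay between 3.40 and 4.49 RPKM in the 6 groups.

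Within a group, the ratio of an immunoproteasome subunit to the constitutive subunit whose place it takes does not depend on library scaling. The ratio of deposited means of Psmb8 to Psmb5 was 0.451 in Control and 1.78 in KO at 22 °C, so KO before cold was the single group in which Psmb8 exceeded Psmb5. It was 0.193 and 0.319 at 24 h, and 0.226 and 0.444 at 7 d. The ratio of Psmb9 to Psmb6 was 0.144 and 0.539 at 22 °C, 0.109 and 0.176 at 24 h, and 0.121 and 0.160 at 7 d, in deposited means. For Psmb10 and Psmb7 the ratio of deposited means was 0.163 and 0.250 at 22 °C, 0.0922 and 0.0630 at 24 h, and 0.0932 and 0.0937 at 7 d. At 24 h that last ratio was lower in KO than in Control, whereas the other pairs kept KO above Control in each state. These ratios come from 1 mean per group and have no test.

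**Figure D3:**
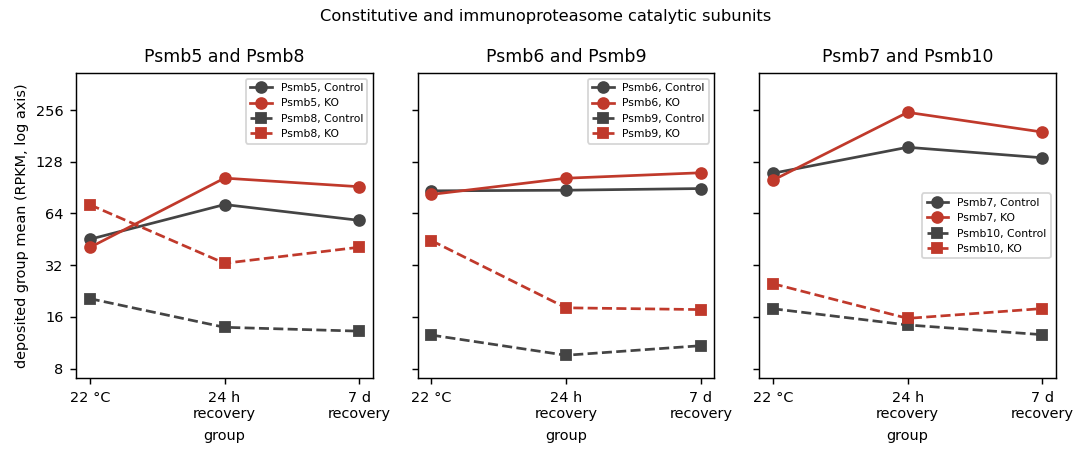
Deposited group means (RPKM, log axis) of the 3 constitutive catalytic subunits (circles) and the immunoproteasome subunits that take their places (squares) at 22 °C, 24 h and 7 d of recovery, in Control (grey) and KO (red). In KO at 22 °C Psmb8 is at 72.0 RPKM and Psmb5 at 40.6; in the 5 other groups Psmb5 is the higher.

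Genes of interferon signalling and antigen presentation were read beside the immunoproteasome from a list of 12. At 22 °C the deposited table called 10 of the 12 higher in KO and none lower, at a median of 1.11 log2. B2m, the light chain of class I molecules, had deposited means of 434 and 1305 RPKM in Control and KO (log2 1.82, adjusted p 6.2e-20). Tap2, a subunit of the peptide transporter, had deposited means of 18.1 and 40.2 RPKM (1.38, 3.5e-13), and the class I heavy chain H2-K1 had 195 and 403 RPKM (1.28, 7.1e-13). The heavy chain H2-D1 was higher by a deposited 1.10 log2 and the transcription factor Irf1 by 1.12. At 24 h 3 of the 12 were higher in KO in the deposited table, Tap1 and B2m among them, at a list median of 0.26 log2, and at 7 d 1, B2m (1.00 log2, adjusted p 4.7e-06), at 0.23. Of all genes, 16.3%, 10.5% and 9.18% were called higher in KO in the 3 states. The 1 of 12 at 7 d is near that share.

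Some markers of other cells were higher in KO at 22 °C as well. Of 9 leukocyte and lymphocyte markers, 4 were listed in that deposited table and all 4 were higher in KO: Ptprc with means of 3.39 and 5.44 RPKM, Cd3e with 0.139 and 0.548, Cd3g with 0.291 and 1.68, and Nkg7 with 0.972 and 2.28. Their summed deposited level was 4.79 RPKM in Control against 9.94 RPKM in KO at 22 °C, 4.73 and 5.96 at 24 h, and 4.04 and 4.37 at 7 d, over the 3 or 4 markers with a mean in the group. The 5 others, which include Cd8a, Cd4, Cd79a and Ms4a1, were not listed in the tables used. For every listed gene the higher of the 2 means was at least about 0.5 RPKM. Cd3e and Cd3g were thus listed at 22 °C only through their KO mean, and could appear there only as higher. The part of leukocytes in the immunoproteasome levels was not tested. Of 7 macrophage markers 1 was higher in KO at 22 °C in the deposited table, Lgals3, and none was called at 24 h or 7 d between genotypes. Of all genes, 16.3%, 10.5% and 9.18% were higher in KO in the 3 states, and the macrophage counts are near these shares. Without the 5 immunoproteasome genes, a reading chosen after the data were seen, 17 members were called higher in KO at 22 °C and 2 lower in the deposited table.

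**Figure D4:**
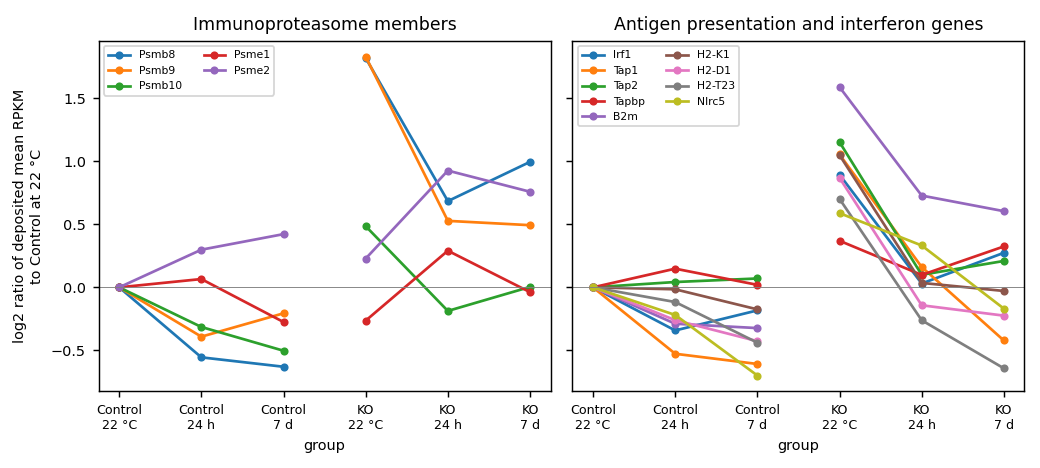
Log2 ratio of each deposited group mean to the mean in Control at 22 °C (vertical axis, no centring) over the 6 groups, for the 5 immunoproteasome genes and for 9 of the 10 interferon and antigen presentation genes called in KO at 22 °C; each line joins the groups of 1 genotype. The 9 genes are shown because they were called higher in KO at 22 °C, so their height there is set by that choice, and 1 of the 10 is not shown. Psmb8 and Psmb9 stand higher in each of the 3 KO groups than in any Control group; the median of all genes in KO at 22 °C is -0.25 on this scale.

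Some proteasome genes, mostly constitutive subunits, rose 24 h after cold, with a share in KO well above that of all genes. In Control the share was nearer to that of all genes. There the deposited table called 10 of 49 members (20.4%) higher and 0 lower, where 13.1% of all genes were higher and 8.67% lower. The median member in Control was at 0.21 log2 against 0.01 for the other genes. In KO the deposited table called 25 (51.0%) higher and 4 lower, where 22.1% of all genes were higher and 19.8% lower. The medians in KO were 0.34 and -0.03. Of the 31 constitutive subunits, 9 rose in Control and 16 in KO, and 0 and 1 fell. The 2 recovery comparisons share no libraries, and 9 genes were called higher in both, which is 9 of the 10 called in Control and 9 of the 25 called in KO: Psma6, Psmb3, Psmb5, Psmb7, Psmc4, Psmc5, Psmd3, Psmd12 and Psmc3ip. Of all 12335 genes tested in both comparisons, 8.57% were called higher in both, which is 64.5% of those called in Control and 38.4% of those called in KO. Psmd7 was the 1 gene called in Control and not in KO, at a deposited 0.45 (adjusted p 0.032) and 0.25 log2 (0.21).

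By size, the same 3 subunits, Psmb5, Psmb7 and Psmc4, led in each genotype. Psmb5 rose by a deposited 0.73 log2 in Control (adjusted p 4.2e-05) and 1.31 in KO (9.2e-17), from 45.3 to 72.2 RPKM and from 40.6 to 103 RPKM. Psmb7 rose by a deposited 0.57 log2 in Control (0.00011) and 1.28 in KO (3.1e-23). Psmc4, the ATPase, rose by a deposited 0.74 log2 (1.0e-05) and 1.26 (5.0e-17). The structural beta subunit Psmb3 rose by a deposited 0.52 and 0.76 log2, the lid subunit Psmd12 by 0.42 and 0.80, and the alpha subunit Psma6 by 0.36 and 0.64. The ATPase Psmc5 rose by a deposited 0.53 and 0.34 log2, and Psmd3 by 0.39 and 0.35. Psmb6, the third catalytic subunit, passed in neither genotype, at a deposited 0.07 (adjusted p 0.75) and 0.28 log2 (0.056). All 7 macrophage markers listed rose in Control in the deposited table, their summed level going from 85.1 to 242.8 RPKM, and none was called in KO, where the sum went from 109.3 to 138.3 RPKM; their part in the proteasome levels was not tested.

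In KO, members that did not pass in Control rose as well. Psmd6, a lid subunit, rose by a deposited 0.96 log2 (adjusted p 2.6e-09), with 0.39 in Control (0.051). The activator Psme4 rose by a deposited 0.84 log2 (7.2e-11), with 0.29 in Control (0.068), and Psme3 by 0.68 (1.9e-06), with 0.14 (0.53). Psme1 and Psme2 rose by a deposited 0.52 and 0.66 log2. Psma2 rose by a deposited 0.50 log2, Psma4 by 0.39 and Psmd13 by 0.52. Smaller rises that passed were those of Psmd14, Psmb2, Psmd8 and Psma3, at a deposited 0.46, 0.43, 0.40 and 0.34 log2. Of the chaperones, Psmg1, Psmg2 and Psmd9 rose, by a deposited 0.40, 0.48 and 0.54 log2. The deposited KO recovery table and the genotype table at 22 °C share the 4 KO libraries at 22 °C, so the low 22 °C means of Psmg2 and Psmd9 enter both. Of the brown adipocyte markers, Ucp1, Cidea and Ppargc1a rose in the deposited KO recovery table, at 6.84, 1.54 and 1.37 log2, and Adipoq and Plin1 fell, at -0.98 and -0.63 log2. Their part in the proteasome levels was not tested.

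The 4 members that fell in KO were the catalytic immunoproteasome subunits and Psma7. Psmb9 fell from a deposited 44.5 to 18.1 RPKM (log2 -1.33, adjusted p 8.0e-07). Psmb8 fell from a deposited 72.0 to 32.8 RPKM (-1.17, 1.5e-06). Psmb10 fell from a deposited 24.96 to 15.7 RPKM (-0.70, 0.00019), and Psma7 from 58.5 to 47.9 RPKM (-0.32, 0.028). In Control none of these passed: the deposited log2 values were -0.33 for Psmb9 (adjusted p 0.44), -0.50 for Psmb8 (0.12), -0.25 for Psmb10 (0.33) and 0.12 for Psma7 (0.59). Of the 12 interferon and antigen presentation genes, 8 fell in KO and none was called in Control in the deposited tables, at list medians of -0.90 and -0.07 log2. Of all genes, 19.8% fell in KO and 8.67% in Control. Of the 4 leukocyte markers listed in the KO recovery table, Cd3e alone was called, lower, from a deposited 0.548 to 0.153 RPKM. Only its 22 °C mean was high enough for listing, so it could appear there only as lower.

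The difference between the genotypes' responses was tested by subtracting the deposited log2 fold changes and dividing by an error rebuilt from the deposited p-values, adjusted over 10923 genes. It passed for 5 members with a larger rise in KO and for 1 with a larger fall, where 10.6% and 6.96% of all genes passed in these directions. The share of members, 5 of 49, is near that of all genes. For Psmb7 the KO rise exceeded the Control rise by 0.72 ± 0.18 log2 (rebuilt SE, adjusted p 0.00067), for Psmb5 by 0.58 ± 0.21 (0.040), for Psmd6 by 0.57 ± 0.21 (0.047), for Psme4 by 0.55 ± 0.17 (0.012) and for Psme3 by 0.54 ± 0.19 (0.031). For Psmb9 the KO value was lower than the Control value by a difference of -1.001 ± 0.37 log2 (0.041). Psmb8 missed, at -0.67 ± 0.32 (adjusted p 0.14), as did Psmb10 at -0.44 ± 0.24 (0.22), Psmc4 at 0.51 ± 0.20 (0.062) and Psmg2 at 0.66 ± 0.27 (0.079). At a threshold of 0.01 Psmb7 alone was left.

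**Figure D5:**
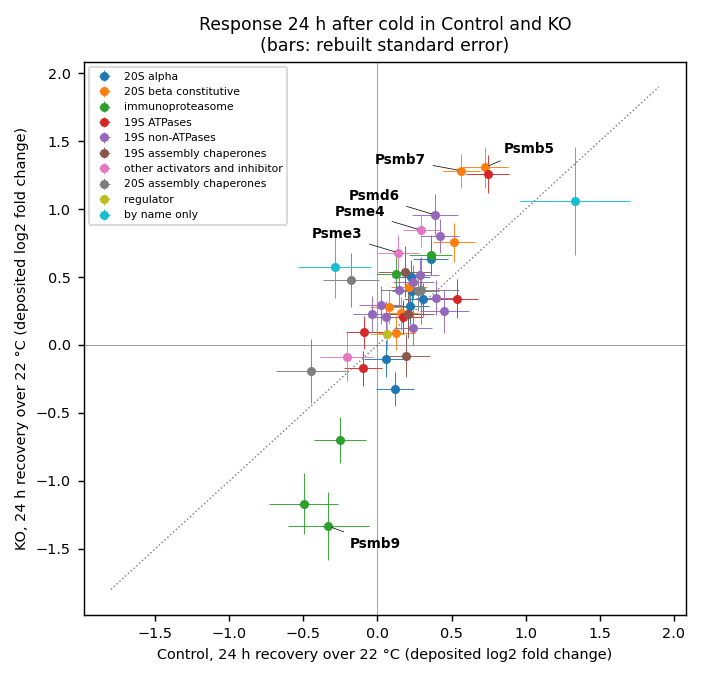
Deposited log2 fold change from 22 °C to 24 h of recovery in Control (horizontal axis) and KO (vertical axis) for the 49 genes, coloured by role, with standard errors rebuilt from the deposited p-values as bars; the dotted line marks equal responses and names mark the 6 genes whose responses differed. Psmb7 and Psmb5 lie above the line at 1.28 and 1.31 in KO against 0.57 and 0.73 in Control, and Psmb9 lies under it at -1.33 against -0.33.

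No deposited table compares 7 d with 22 °C, so the persistence of these levels can be described from the group means alone, with no test. After subtracting the median of 12099 genes, the median member at 24 h stood 0.20 log2 above its own 22 °C mean in Control and 0.36 in KO, and at 7 d 0.26 and 0.36. At 7 d 41 of 49 members were above 0 in Control and 42 in KO on this scale. For the constitutive beta subunits the median was 0.31 in Control and 0.44 in KO at 7 d, for the alpha subunits 0.38 and 0.42, for the cap ATPases 0.23 and 0.38, and for the other cap subunits 0.34 and 0.33. The immunoproteasome genes went both ways. Psmb8, Psmb9 and Psmb10 were under 0 in both genotypes at 7 d, at -0.51, -0.09 and -0.39 in Control and -0.87, -1.39 and -0.53 in KO. Psme2 was above 0 in both, at 0.54 in Control and 0.48 in KO, and Psme1 was at -0.16 and 0.17. Psmb5, Psmb7 and Psmc4 had 7 d means between their 22 °C and 24 h means in both genotypes. The summed deposited level of 5 skeletal muscle markers was 501.7 RPKM in Control and 423.3 RPKM in KO at 7 d, against 83.6 to 154.1 RPKM in the 4 other groups, and its part in the 7 d levels was not tested.

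Nfe2l1, the regulator of subunit genes, passed in no comparison. Its deposited means were 81.5, 81.7 and 80.3 RPKM in Control and 78.9, 85.4 and 89.4 RPKM in KO, a span of 1.13-fold over the 6 groups. The deposited log2 fold change was 0.19 (adjusted p 0.20), 0.20 (0.23) and 0.22 (0.21) between genotypes, and 0.07 (0.77) and 0.08 (0.65) for recovery in Control and KO. Intervals of 95% rebuilt from the deposited p-values ran from -0.16 to 0.29 for recovery in Control and from -0.15 to 0.30 in KO. For genotype they ran from -0.03 to 0.42 at 22 °C, from -0.02 to 0.43 at 24 h and from -0.0049 to 0.44 at 7 d. A higher Nfe2l1 level in KO of up to these upper limits is thus within the intervals. Nfe2l1 protein is regulated by its processing and turnover, which RNA levels do not show.

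Genes that process Nfe2l1 or work beside it were read from a list of 13. At 22 °C the deposited table called 6 higher in KO and none lower, at a median of 0.26 log2: Maff, a small partner protein of this factor family, with means of 1.12 and 4.64 RPKM (log2 2.30, adjusted p 4.8e-08), Keap1, the adaptor that targets Nfe2l2 for degradation (0.53, 1.7e-05), the unfolding ATPase Vcp (0.35, 0.011), the partner Mafg (0.67, 0.022), the deglycosylase Ngly1 (0.32, 0.031) and Nfe2l2 (0.39, 0.047). At 24 h 1 was higher in the deposited table, Akirin2, a carrier of proteasomes into the nucleus (0.55, 0.0036). At 7 d Vcp (0.37, 0.018) and Ddi2, the protease that cleaves Nfe2l1 (0.35, 0.047), were higher in the deposited table and Sel1l was lower (-0.36, 0.035). During recovery in KO the deposited table had Ddi2 rising (0.44, 0.0025) and Maff, Mafk and Btrc falling, at -2.38, -0.84 and -0.52 log2, and in Control Btrc alone fell (-0.48, 0.042). Of all genes, 16.3%, 10.5% and 9.18% were higher in KO at 22 °C, 24 h and 7 d. In KO recovery 22.1% rose and 19.8% fell, and in Control 13.1% and 8.67%. Apart from the 6 of 13 at 22 °C, the list's counts are near or under such shares.

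Proteins that bind or assemble the proteasome gave a smaller list, with 10 of 14 symbols in the tables. The deposited tables called 3, 5 and 2 of the 10 higher in KO at 22 °C, at 24 h and after 7 d, and none lower. Of all genes, 16.3%, 10.5% and 9.18% were higher. Pomp, the maturation protein of the core, was higher in each state, with deposited means of 48.8 and 75.2 RPKM at 22 °C, 61.4 and 78.5 at 24 h, and 68.0 and 94.7 at 7 d. Its deposited log2 fold changes were 0.86, 0.49 and 0.55 (adjusted p 1.4e-10, 0.00092 and 0.00022). Pomp is an assembly chaperone, and it was called higher in all 3 states, as 4.43% of all genes were. None of the 7 Psmg and Psmd chaperones was, which is near that share. Txnl1, a thioredoxin-like protein of the cap, was higher in each state too, by a deposited 0.79, 0.56 and 0.45 log2. The ubiquitin receptor Adrm1 passed at 22 °C (0.34, 0.046) and 24 h (0.44, 0.010), and the deubiquitinase Usp14 at 24 h (0.53, 0.00085), in the deposited tables. During recovery Pomp rose in Control (0.39 log2, adjusted p 0.015) while Usp14 and Fbxo7 fell, at -0.49 and -0.49, and in KO Fbxo7 fell, at -0.71, in the deposited tables.

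Ubiquitin genes and the shuttles that carry substrates were mixed. Of 10 in the list, the deposited table at 22 °C called 4 higher in KO and 3 lower. Of all genes, 16.3% were higher and 18% lower. The stress-responsive polyubiquitin gene Ubb was higher, by a deposited 0.74 log2 (adjusted p 1.7e-06), as were the shuttles Rad23b (0.65) and Ubqln1 (0.85). The activating enzyme Uba1 and the shuttle Ubqln4 were lower, at a deposited -0.36 and -1.0 log2. At 24 h 4 and at 7 d 3 were higher and none lower in the deposited tables, where 10.5% and 9.18% of all genes were higher. Ubb, Rad23b and Ubqln1 were higher in all 3 states, Rad23b by a deposited 0.74 and 0.78 log2 at 24 h and 7 d. In the KO recovery table, which shares its 22 °C libraries with the genotype table, Uba1 and Ubqln4 rose by a deposited 0.56 and 1.05 log2, and Ubb and Ubqln2 fell. In Control Ubqln2 fell (-0.82) in the deposited table.

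The last of the 49 are the genes taken by symbol alone. Psmc3ip rose by a deposited 1.33 log2 in Control and 1.06 in KO (adjusted p 0.0036 and 0.023), from 0.887 to 2.20 RPKM and from 0.757 to 1.59 RPKM, on few reads. It shares 21.2% of its annotated exon bases with Mlx. Psme2b was higher in KO at 24 h by a deposited 0.97 log2 (adjusted p 0.00057), beside 0.76 for Psme2. Their transcripts are 99.37% identical over 794 aligned bases, so how reads were divided between them is uncertain. Without these genes the counts were 9 and 23 higher during recovery in Control and KO, and 21, 31 and 28 higher in KO at 22 °C, 24 h and 7 d.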

How the data were processed

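RNA was sequenced from 24 libraries, 4 in each of 6 groups, after ribosomal RNA removal and with a TruSeq kit that does not mark strand, per the labels' protocols. The submitters' processing notes name STAR, featureCounts, edgeR and mouse build mm9, and give no versions. Each of the 5 deposited tables holds the authors' log2 fold change, p-value and adjusted p-value, gene length and 1 mean per group, per the file headers. The means the authors deposited carry no unit and were read as RPKM from the gene lengths and the deposited log2 CPM. Library values are not in these tables, so the planned count test was replaced by the authors' edgeR adjusted p-value at 0.05, set by them over 13414 genes. Differences between recovery responses were tested on the deposited values, with errors rebuilt from each deposited p up to 0.9. A run on simulated data took its p-values from the same normal formula that the rebuilding inverts. It therefore could not check how well errors are rebuilt from p-values of edgeR. Motifs were counted in RefSeq promoters, and shared exons in GENCODE M21 (GRCm38). The deposited counts used build mm9, so shared bases need not lie in the counted exons. The members and gene lists were chosen with earlier results of these data known. Every member was named, with full values for Nfe2l1, catalytic and activator genes and the members of smallest p in each role. Some other genes counted in the lists, and 1 motif, are not reported here. Alternatives changed the threshold, the adjustment, a minimum fold or mean, and centring. Python 3.11.15, pandas 2.3.3 and scipy 1.17.1 were used. The labels speak of biological replicates and do not say which libraries share a litter or day.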

Additional observations from a re-analysis of the deposited data

Results flagged for a closer look

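For 6 members the response to cold and 24 h of recovery differed between the genotypes, by the test of the difference of deposited log2 fold changes (KO minus Control). A larger rise in KO passed for 5 of the 49 and a larger fall for 1, where 10.6% and 6.96% of all genes passed in these directions, so the members' share is at or under that of all genes. The difference was 0.7158 for Psmb7, 0.5806 for Psmb5, 0.5684 for Psmd6, 0.5507 for Psme4 and 0.5372 for Psme3, each a larger rise in KO. For Psmb9 it was -1.001, a larger fall in KO. Psmb8, whose place in the core is that of Psmb5, was at -0.67 with an adjusted p of 0.14.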

How the results depend on the processing

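The counts of called members kept their directions under every setting run. The direction of the median member did not at 22 °C between genotypes, where uncentred means put it at -0.05 log2 against a deposited 0.19. A minimum of 1.5-fold took the members called higher to 3 and 11 for recovery in Control and KO, and to 11, 15 and 11 in KO at 22 °C, 24 h and 7 d, since most proteasome genes moved by less. The share of all genes was not counted under the alternative settings, so these counts cannot be set against it. A minimum mean of 5 RPKM in both groups took those lower in KO at 22 °C to 1 by removing Psmd9. At an adjusted p under 0.01 the difference between recovery responses held for 1 member with a larger rise in KO and 0 with a larger fall. Centring on the median of all genes moved the median member at 7 d in Control from 0.1475 to 0.2627 log2 above 22 °C. The other 77 values run stayed within 1.5 times their count or 0.1 log2. Settings that drop Psmc3ip and Psme2b, drop the immunoproteasome genes, or take direction from uncentred means were chosen after seeing the data. Leaving out a replicate, DESeq2 and another normalization were not run, because the tables used hold 1 mean per group. No paired analysis was possible because the columns carry no library or replicate number. Depth limits Psmc3ip, at 5.21 to 18.6 reads per library.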

Other observations

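Psma1, the alpha subunit farthest from Control, was set beside Copb1 and Pde3b, the protein-coding genes next to it on chromosome 7 in RefSeq, a reading chosen after values were seen. In the deposited tables Copb1 was higher in KO by 0.59, 0.67 and 0.61 log2 at 22 °C, 24 h and 7 d (adjusted p 1.3e-05, 1.9e-06 and 2.4e-05). Pde3b was higher in KO by a deposited 0.55, 0.90 and 0.48 log2 (0.00023, 1.9e-09 and 0.0049). Psma1 itself was at a deposited 1.40, 1.47 and 1.06 log2. The part of the region in the value of Psma1 was not tested.

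The ratio of deposited means of Psme2 to Psme1, partners in 1 activator, was 1.01, 1.19 and 1.64 in Control at 22 °C, 24 h and 7 d, and 1.43, 1.57 and 1.76 in KO. These ratios have no test.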
